A study of Mus musculus with 15 samples.

Results

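Lin- Sca1+ cKit+ (LSK) bone marrow cells from leukemic Tet2(-/-) Nras(G12D) mice were compared with LSK cells from Tet2(-/-) Nras(G12D) mice that had not developed leukemia, by RNA sequencing. Of 44827 genes in the expression table, 13162 (29.4%) reached a log2 CPM (CPM is the read count scaled to a common library size) of 0 in at least 3 of the 6 libraries compared, and these genes were tested. The leukemic group and the non-leukemic double mutant group had 3 libraries each. The other 9 libraries of the series, 3 each from Tet2(-/-), Nras(G12D) and WT mice, entered the fit so that all 15 shared an estimate of the spread. All mice were of the C57BL/6 strain, and both compared groups are labelled with the same 2 mutations. The mutations were conditional and limited to blood-forming tissue. The driver of the deletion is not given in the sources used here. The study's design text gives an age of 6 months for the mice whose methylome was examined. The leukemic libraries also carry the code BMT in their labels. The labels do not say what it stands for, and any treatment behind it cannot be told apart from leukemia. Whether each library came from its own mouse is not stated, so p-values measure only the spread between libraries, which may be technical.

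The LSK gate holds the stem cells and multipotent progenitors of the marrow. Stem cells keep a transcription programme led by factors such as HLF, MEIS1 and ERG, and their descendants replace it with lineage programmes, among them the red cell programme driven by GATA1 and KLF1. TET2 oxidises methylated cytosine, and NRAS G12D keeps the RAS protein in its active state, which drives the MEK and ERK kinases. Loss of TET2 and activation of NRAS occur together in myeloid leukemia.

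The leukemic libraries had 30256895, 37363121 and 36343412 reads counted to genes, and the double mutant libraries 27152151, 33037109 and 27160858. The 3 leukemic libraries were unlike each other: the median gene had an SD of 0.42 in log2 CPM between them, against 0.23 between the double mutant libraries. On the first principal component of the 6 libraries, which held 70.3% of the variance, leukemic libraries 1, 2 and 3 lay at -2.3, 124.2 and 67.9, and the double mutant libraries at -58.8, -59 and -71.9. Leukemic library 1 therefore lay nearest to the double mutant group. The Y-linked gene Ddx3y was at 157 CPM in leukemic library 1 and 175 CPM in double mutant library 1 and at 0.181 CPM or less in the other 4, so each group held 1 library with Y-linked transcripts. Xist, the RNA that coats the silenced X, was at 56.8, 150 and 157 CPM in leukemic LSK and at 0.692, 537 and 706 CPM in double mutant LSK, so leukemic library 1 held both Ddx3y and Xist while double mutant library 1 held little Xist. Y-linked transcripts therefore do not separate the groups, but in the leukemic group they mark the library nearest to the double mutant. Leaving out every library with them, 5774 genes were called, and the libraries with them are 1 a group, so no test could be made within them.

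The targeted genes did not differ between the groups at the threshold used. Tet2, on chromosome 3 from 133463679 to 133545139 on the minus strand (GRCm38), was at 76.5, 32.3 and 38.9 CPM in leukemic libraries 1, 2 and 3, and at 62.6, 56.3 and 47.9 CPM in double mutant libraries 1, 2 and 3 (log2 change -0.27 ± 0.31 SE, adjusted p = 0.548). Here and below, CPM values are given for libraries 1, 2 and 3 of a group in that order, a log2 change is the leukemic mean minus the double mutant mean of log2 CPM, and adjusted p-values are from limma with Benjamini-Hochberg adjustment over all 13162 genes. Tet2 was at 65.2, 50.7 and 61 CPM in WT, so a gene-level count does not show the deletion, and it checks no label. Nras was at 165, 196 and 161 CPM in leukemic LSK and at 159, 157 and 145 CPM in double mutant LSK (log2 change 0.17 ± 0.19, adjusted p = 0.521).

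A set of genes did separate the libraries by their Tet2 label, and there the leukemic libraries lay with the groups that carry intact Tet2. Rpl34, a ribosomal protein gene on the same chromosome as Tet2 (chromosome 3, 130726831 to 130730398), was at 142, 192 and 196 CPM in leukemic LSK and at 50.4, 47.1 and 57.8 CPM in double mutant LSK (log2 change 1.76 ± 0.24, adjusted p = 0.00105). It was at 41.8, 42.5 and 58.7 CPM in Tet2(-/-), at 245, 143 and 168 CPM in Nras(G12D) and at 145, 144 and 109 CPM in WT. Its processed copies Rpl34-ps1 and Gm5900 ran the other way. Gm5900 was at 1.1, 0.823 and 1.31 CPM in leukemic LSK and at 15.5, 15.6 and 16 CPM in double mutant LSK (log2 change -3.87 ± 0.29, adjusted p = 2.12e-05). Rpl34-ps1 was at 1.41, 1.61 and 1.68 CPM in leukemic LSK and at 21.3, 19 and 24.9 CPM in double mutant LSK (log2 change -3.77 ± 0.39, adjusted p = 0.000305). These 3 genes share sequence, so their reads cannot be assigned with certainty. Alpk1, a kinase gene on chromosome 3 from 127670310 to 127780527, was at 6.45, 4.94 and 9.63 CPM in leukemic LSK, at 55.5, 46.1 and 61.6 CPM in double mutant LSK and at 88.3, 44.5 and 104 CPM in Tet2(-/-). At all 4 genes the leukemic and double mutant libraries did not overlap. Among the 68 tested genes within 10 Mb of Tet2, 23 (33.8%) passed the test, against 24.2% of all tested genes. Whether the genotype of the leukemic libraries around Tet2 has a part in these values was not tested, and every comparison below rests on the groups as labelled. These genes were chosen after their values were seen.

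**Figure D1:**
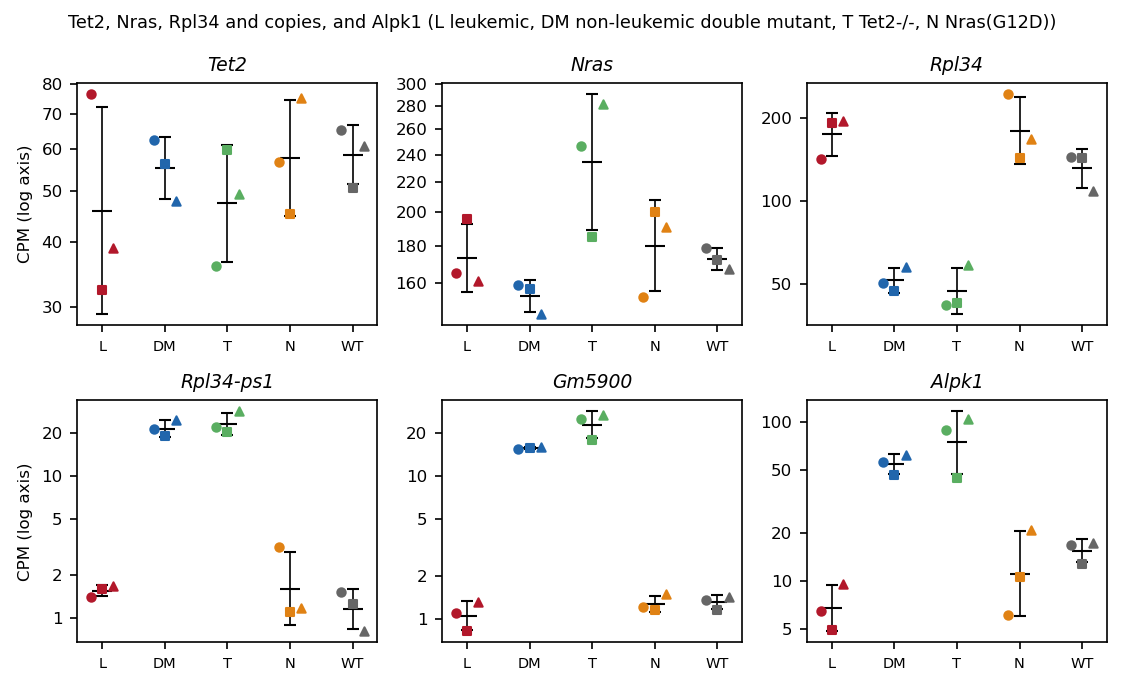
CPM (log axis) of Tet2, Nras, Rpl34, its copies Rpl34-ps1 and Gm5900, and Alpk1 in 3 libraries each of the leukemic (L), non-leukemic double mutant (DM), Tet2(-/-) (T), Nras(G12D) (N) and WT groups. Circles, squares and triangles are libraries 1, 2 and 3, and black bars are the mean and SD on the log2 scale. In the last 4 panels the leukemic libraries lie with N and WT and away from DM and T (Gm5900 at 0.823 to 1.31 CPM in L and 15.5 to 16 CPM in DM).

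Between the leukemic and double mutant groups, 3185 genes (24.2% of those tested) passed an adjusted p of 0.05. Of these, 1242 (9.44%) were higher and 1943 (14.8%) lower in the leukemic libraries, and 5093 genes had an unadjusted p below that value. The log2 change was at least 4 in size for 66 genes called higher and 37 called lower, and at least 2 for 219 and 686. All 3 leukemic values lay outside the double mutant range for 43.3% of all tested genes, 20.5% above it and 22.8% below it. The split depended on the scaling. Under scaling by total counts the median of all tested genes moved to -0.31 from -0.08 (log2) and 776 genes were higher and 2703 lower. After median centring 1596 were higher and 1493 lower, and after quantile normalization 1250 and 1329. In 87.6% of the genes called higher and 79.4% of those called lower, leukemic library 1 was the leukemic library nearest to the double mutant mean. Leukemic library 2 was the farthest in 86.2% and 79.5% of them. Without leukemic library 1, 5047 genes were called, without leukemic library 2, 1122, and without leukemic library 3, 1715. Below, library 1, 2 or 3 without a group name is a leukemic library. Over the 6 fits that each left out 1 compared library, 1023 genes (32.1% of those called) were called every time.

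**Figure D2:**
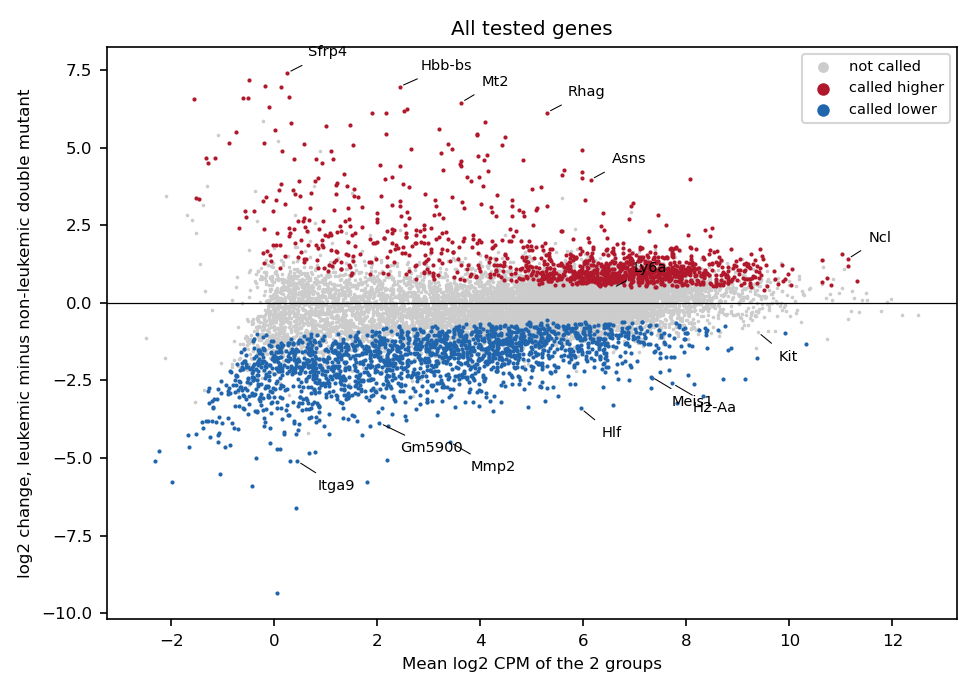
Each point is 1 of the 13162 tested genes, with the mean log2 CPM of the 2 groups on the x axis and the log2 change, leukemic minus non-leukemic double mutant, on the y axis. Genes called higher are red (1242), genes called lower are blue (1943), and genes not called are grey. Lines join gene names to their points.

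Genes of red cell formation had the largest median rise of the 40 lists described. Of 24 erythroid genes, all tested, 20 were called higher and 0 lower, beside 9.44% called higher over all tested genes. Their median log2 change was 4.2, against -0.08 over all tested genes. Over the fits leaving out leukemic libraries 1, 2 and 3, the numbers called higher were 23, 16 and 18, and in a fit of the 6 libraries alone 11. The rise was present in each leukemic library, with medians of 2.15, 6.04 and 4.34 above the double mutant mean in libraries 1, 2 and 3. Library 2 was the highest of the 3 at each of the 20 called erythroid genes. In bulk samples, more cells of a type and more of its RNA per cell cannot be told apart. The 5 defining erythroid markers summed to 42.9, 846 and 119 CPM in leukemic LSK and to 6.71, 9.86 and 1.54 CPM in double mutant LSK.

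The promoters of 4 erythroid genes are shown because GATA1 binds GATA sites in red cell promoters: 3 belong to genes named for the size of their rise, and Klf1 encodes a red cell regulator. Each sequence is the 250 bases before the transcription start, 5′ to 3′ on the gene's strand, from RefSeq (GRCm38.p6). Capitals mark GATAA or its reverse complement TTATC, the core letters of a GATA site, and in Hbb-bs also CCACACCC, which matches CCNCNCCC, the CACCC box bound by KLF1. The motif letters were chosen after the windows were seen.
Hbb-bs, chr7:103827929-103828178, minus strand: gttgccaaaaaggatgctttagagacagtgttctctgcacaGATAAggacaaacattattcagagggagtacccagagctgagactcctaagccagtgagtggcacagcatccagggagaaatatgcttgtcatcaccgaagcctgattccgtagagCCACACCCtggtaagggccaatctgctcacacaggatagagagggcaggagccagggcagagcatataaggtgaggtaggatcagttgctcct
Hba-a1, chr11:32283422-32283671, plus strand: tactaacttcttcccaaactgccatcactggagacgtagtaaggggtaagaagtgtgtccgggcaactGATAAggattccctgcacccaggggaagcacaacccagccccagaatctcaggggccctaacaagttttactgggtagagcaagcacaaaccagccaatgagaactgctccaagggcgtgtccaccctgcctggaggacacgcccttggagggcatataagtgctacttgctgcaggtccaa
Rhag, chr17:40810899-40811148, plus strand: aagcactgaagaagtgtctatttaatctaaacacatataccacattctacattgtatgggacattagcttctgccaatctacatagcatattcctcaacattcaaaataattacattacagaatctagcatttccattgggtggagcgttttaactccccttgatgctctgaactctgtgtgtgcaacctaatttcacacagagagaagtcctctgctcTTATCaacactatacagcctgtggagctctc
Klf1, chr8:84901732-84901981, plus strand: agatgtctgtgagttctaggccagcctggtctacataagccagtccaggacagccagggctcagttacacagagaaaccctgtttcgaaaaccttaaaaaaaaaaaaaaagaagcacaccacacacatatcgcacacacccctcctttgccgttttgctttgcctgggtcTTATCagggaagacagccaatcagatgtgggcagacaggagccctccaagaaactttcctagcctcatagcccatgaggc
Both strands were searched. Of 24 tested erythroid genes, 18 had a promoter in the table and 12 of them held GATAA, against 25.5% of 27025 genes searched and 18.1% of 9525 tested genes. CCNCNCCC was in 12 of the same 18, against 48.5% and 67.2%. A match is a description of the letters and not a shown binding site.

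Globin genes, which encode the chains of haemoglobin, were higher in each leukemic library. Hbb-bs, which encodes adult beta globin, was at 21.1, 334 and 31.1 CPM in leukemic LSK and at 1.18, 1.78 and 0.0351 CPM in double mutant LSK (log2 change 6.97 ± 1.29, adjusted p = 0.00391). Hba-a1, an alpha globin gene, was at 7.93, 163 and 22.9 CPM in leukemic LSK and at 0.726, 1.39 and 0.0702 CPM in double mutant LSK (log2 change 6.1 ± 1.03, adjusted p = 0.00296). Hba-a2 and Hbb-bt moved alongside with log2 changes of 5.14 and 4.4. Alpha globin genes share sequence with each other, as do beta globin genes, so reads may be split between the copies. At every globin gene the 3 leukemic libraries lay above the 3 double mutant libraries. The WT libraries had 17.9, 7.86 and 7.21 CPM of Hbb-bs, and thus more than the double mutant libraries.

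Genes of the red cell membrane and skeleton were higher as well. Rhag, which encodes a membrane channel of the Rh complex, was at 85.3, 1270 and 325 CPM in leukemic LSK and at 5.78, 7.9 and 2.21 CPM in double mutant LSK (log2 change 6.13 ± 0.78, adjusted p = 0.000804). Rhd, its partner in the complex, had a log2 change of 5.09 ± 0.81 (adjusted p = 0.00236). Sptb, a spectrin of the membrane skeleton, had a log2 change of 5.43 ± 0.89 (adjusted p = 0.00261). Ank1, the ankyrin that ties spectrin to the membrane, had one of 4.83 ± 0.79. Add2, an adducin of the same skeleton, was at 29.2, 395 and 181 CPM in leukemic LSK and at 3.29, 4.46 and 0.772 CPM in double mutant LSK. Each of these 5 genes passed the test in all 6 fits that left out a library.

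Regulators and enzymes of the red cell line rose too. Gata1 was at 63.8, 445 and 248 CPM in leukemic LSK and at 39.5, 33.3 and 31 CPM in double mutant LSK (log2 change 2.48 ± 0.51, adjusted p = 0.00582). Epor, the erythropoietin receptor, was at 43.2, 299 and 176 CPM in leukemic LSK and at 12, 9.53 and 8.25 CPM in double mutant LSK (log2 change 3.74 ± 0.61, adjusted p = 0.00257). Both passed the test in all 6 fits leaving out a library, and at both genes the groups did not overlap. Klf1 was at 31.1, 620 and 419 CPM in leukemic LSK and at 14.1, 15.8 and 6.85 CPM in double mutant LSK (log2 change 4.12 ± 1.09, adjusted p = 0.0164). Its call was lost without library 2 (log2 change 3.31, adjusted p = 0.0899). Tfrc, the transferrin receptor that supplies iron, was at 240, 2360 and 990 CPM in leukemic LSK and at 182, 183 and 115 CPM in double mutant LSK (adjusted p = 0.0127, 0.0625 without library 2). Alas2, the first enzyme of haem synthesis in red cells, had a log2 change of 3.8 and Pklr, red cell pyruvate kinase, one of 5.12. Klf1, Tfrc and Alas2 were named after their values were seen. The 4 erythroid genes that did not pass the test were Car2, Hemgn, Gfi1b and Zfpm1, of which Zfpm1 had a log2 change of -0.37.

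**Figure D3:**
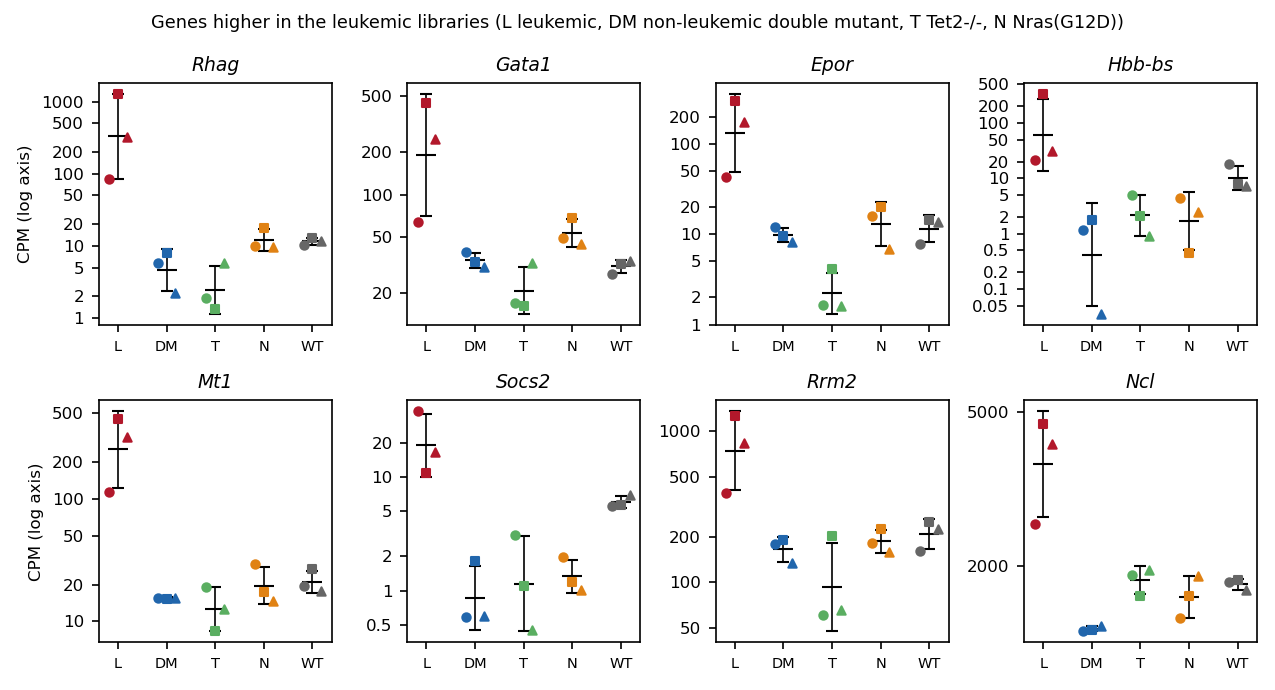
CPM (log axis) of 8 genes called higher in the leukemic libraries, for L (leukemic), DM (non-leukemic double mutant), T (Tet2(-/-)), N (Nras(G12D)) and WT. Circles, squares and triangles are libraries 1, 2 and 3, and black bars are the mean and SD on the log2 scale. In the 8 panels the 3 leukemic libraries lie above the 3 double mutant libraries, and library 1 is the lowest of the 3 leukemic libraries except at Socs2.

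Beyond the red cell genes, the metallothionein genes Mt1 and Mt2 and the cytokine feedback genes Socs2 and Cish were among the called rises. Mt1, a metal-binding stress protein, was at 113, 448 and 319 CPM in leukemic LSK and at 15.6, 15.2 and 15.6 CPM in double mutant LSK (log2 change 4.03 ± 0.44, adjusted p = 0.000417). Mt2 had a log2 change of 6.45 ± 0.82 (adjusted p = 0.000798). Of 17 genes in the list of hypoxia and metallothionein genes, these 2 were the only ones called higher, and Car9 and Ndrg1, 2 known hypoxia-responsive genes, were called lower with log2 changes of -1.49 and -1.83. Ndrg1 lost its call without library 2 (adjusted p = 0.0739). Socs2, which dampens cytokine signalling through STAT proteins, was at 38.4, 10.9 and 16.8 CPM in leukemic LSK and at 0.588, 1.84 and 0.597 CPM in double mutant LSK (log2 change 4.44 ± 0.65, adjusted p = 0.00152). Of 22 genes of JAK-STAT signalling, 2 were higher, Socs2 and Cish, and 2 lower, Bcl6 and Stat4, with a median of -0.22. Over all tested genes 9.44% were called higher and 14.8% lower, so the counts of both lists are no result about the lists. Cish, Bcl6 and Stat4 were not called without library 2 (adjusted p = 0.058, 0.105 and 0.232).

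Abcg4, an ATP-binding cassette transporter, was at 11.1, 166 and 74.3 CPM in leukemic LSK and at 0.934, 1.75 and 0.176 CPM in double mutant LSK (log2 change 6.23 ± 0.97, adjusted p = 0.00208). Col5a1, a fibrillar collagen gene, had a log2 change of 6.17 ± 0.81 and Crip2, a LIM-domain protein gene, one of 4.95 ± 0.6. Tmem56 and Cldn13 rose by 5.61 and 5.4. Pla2g4c, a phospholipase A2 gene, was at 7.34, 244 and 23.7 CPM in leukemic LSK and at 1.25, 2.11 and 0.527 CPM in double mutant LSK (log2 change 4.94 ± 0.91, adjusted p = 0.00383), and was not called in a fit of the 6 libraries alone. For each of these genes the groups did not overlap.

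Genes of DNA synthesis were higher. Of 30 genes of DNA replication and S phase, all tested, 17 were called higher and 0 lower, with a median log2 change of 0.85, and 24 had all leukemic values above the double mutant ones, against 20.5% of all tested genes. The medians of leukemic libraries 1, 2 and 3 for these genes were 0.47, 1.08 and 0.88 from the double mutant mean. Most other libraries lay above that mean too. Their medians were 0.46, 0.27 and 0.51 in Tet2(-/-), -0.24, 0.46 and 0.34 in Nras(G12D), and 0.09, 0.36 and 0.18 in WT. Without library 2, 4 of the 30 were called, and in a fit of the 6 libraries alone 8. Rrm2, the regulated subunit of ribonucleotide reductase, was at 388, 1270 and 832 CPM in leukemic LSK and at 179, 190 and 133 CPM in double mutant LSK (log2 change 2.17 ± 0.45, adjusted p = 0.00586). Rrm1, the other subunit, had a log2 change of 1.4 ± 0.32 (adjusted p = 0.00881). Ccne1, the cyclin that starts S phase with CDK2, was at 23.8, 141 and 129 CPM in leukemic LSK and at 5.81, 18.7 and 11.5 CPM in double mutant LSK (log2 change 2.81 ± 0.56, adjusted p = 0.00523). Of the 30, E2f1 had a negative log2 change, -0.59 (adjusted p = 0.394). Of 30 genes of mitosis 4 were higher and 0 lower, with a median of 0.61, beside 9.44% called higher over all tested genes. Their medians in leukemic libraries 1, 2 and 3 were 0.06, 1.09 and 0.6 from the double mutant mean. The other groups were at -0.41, 0.08 and 0.45 in Tet2(-/-), -0.07, 0.07 and 0.4 in Nras(G12D), and 0.02, 0.23 and 0.18 in WT. Ccnb1, the mitotic cyclin B1, was at 223, 501 and 310 CPM in leukemic LSK and at 147, 135 and 80.7 CPM in double mutant LSK (log2 change 1.48 ± 0.31, adjusted p = 0.00635). Without library 2, 1 of the 30 mitosis genes was called. Of 13 cell cycle inhibitor genes 3 were lower (1 without library 2), beside 14.8% called lower over all tested genes: Btg2, Cdkn1b and Tob1. The medians of the 13 were -0.37, -0.89 and -0.69 in libraries 1, 2 and 3, and -0.76, -0.33 and -0.76 in WT. Cdkn1b, which restrains cyclin E and CDK2, had a log2 change of -1.26 (adjusted p = 0.0125), or -0.98 (adjusted p = 0.0675) without library 2.

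Of 29 nuclear genes of the respiratory chain 11 were higher and 0 lower, with a median of 0.66, beside 9.44% called higher over all tested genes. All leukemic values lay above the double mutant ones at 23 of them, beside 20.5% over all tested genes. Without library 2, 4 were called higher, without library 3, 5, and in the fit of the 6 libraries 7. The medians of leukemic libraries 1, 2 and 3 were 0.4, 0.85 and 0.78 from the double mutant mean. The other groups lay above that mean too. Their medians were 0.08, 0.09 and 0.33 in Tet2(-/-), 0.42, 0.38 and 0.35 in Nras(G12D), and 0.19, 0.26 and 0.12 in WT. Library 1 was thus level with Nras(G12D), and libraries 2 and 3 lay above all of these. Sdhb, a subunit of complex II, was at 241, 324 and 318 CPM in leukemic LSK and at 176, 166 and 145 CPM in double mutant LSK (log2 change 0.85 ± 0.17, adjusted p = 0.00459). Uqcrc2 of complex III and Ndufv1 of complex I had log2 changes of 1.02 and 0.97. Of 23 glycolysis genes 9 were higher and 2 lower, beside 9.44% and 14.8% over all tested genes. Their medians in leukemic libraries 1, 2 and 3 were 0.52, 0.37 and 0.62 from the double mutant mean. The other groups overlapped these values, at 0.67, 0.41 and 0.3 in Tet2(-/-), -0.01, 0.65 and 0.24 in Nras(G12D), and 0.34, 0.34 and 0.38 in WT. Ldha, which makes lactate from pyruvate, was at 2220, 2800 and 2670 CPM in leukemic LSK and at 993, 978 and 995 CPM in double mutant LSK (log2 change 1.37 ± 0.2, adjusted p = 0.00117). Its counterpart Ldhb ran the other way, at 16.5, 2.34 and 5.64 CPM in leukemic LSK and at 42, 38 and 51 CPM in double mutant LSK (log2 change -2.84 ± 0.5, adjusted p = 0.00336). At both genes the groups did not overlap, and Aldoc, an aldolase isoform, was the other glycolysis gene called lower (log2 change -2.32). Of 23 NADPH oxidase and antioxidant genes 5 were higher and 0 lower (2 and 0 in the fit of the 6 libraries), among them Prdx2 and Prdx6, which reduce peroxides, and Nqo1 and Hmox1, with log2 changes of 1.24, 1.14, 1.92 and 1.94. Of 24 heat shock and unfolded protein genes 4 were higher and 3 lower, and without library 2, 1 and 0. Hspd1, the mitochondrial chaperone HSP60, had a log2 change of 1.56 ± 0.3 (adjusted p = 0.00456). Of 36 cytosolic ribosomal protein genes 3 were higher, led by Rpl34 above, and their median of 0.32 was -0.08 after quantile normalization. Rplp0 (log2 change 0.66) and Rpl27 (0.89) were not called without library 2 (adjusted p = 0.112 and 0.0813).

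Genes that mark stem cells were lower, in library 2 most and in library 1 least. Of 24 stem cell regulators, 10 were called lower and 1 higher, with a median of -1.36. Over all tested genes 14.8% were called lower and 9.44% higher. The medians of leukemic libraries 1, 2 and 3 were -0.34, -2.36 and -1.19 from the double mutant mean. Those of the other groups were 0, -0.6 and -0.66 in Tet2(-/-), -0.36, -0.31 and -0.43 in Nras(G12D), and 0.03, -0.41 and -0.14 in WT. Libraries 2 and 3 thus lay below all of these, while library 1 lay among them. Without library 2, 3 were called lower, and in a fit of the 6 libraries alone 0 were called in either direction. Hlf, a transcription factor that maintains stem cells, was at 77.5, 3.89 and 22.7 CPM in leukemic LSK and at 166, 244 and 199 CPM in double mutant LSK (log2 change -3.4 ± 0.69, adjusted p = 0.00542). Meis1, the partner of HOX proteins, was at 191, 23.6 and 75.4 CPM in leukemic LSK and at 356, 365 and 370 CPM in double mutant LSK (log2 change -2.38 ± 0.51, adjusted p = 0.00693). Erg, an ETS factor needed by stem cells, had a log2 change of -2.06 ± 0.48 (adjusted p = 0.00987). For Hlf, Meis1 and Erg the groups did not overlap, and all 3 passed the test in every fit that left out a library. None of the 3 was called in the fit of the 6 libraries alone. Mllt3 was the regulator called higher, with a log2 change of 1.46 (adjusted p = 0.0216, or 0.112 without library 2). Eya2, a transcriptional coactivator gene, had a log2 change of -3.21 ± 0.65, and Tie1, a receptor kinase gene of vessels and stem cells, one of -3.15 ± 0.74.

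The sorting markers did not pass the test, and 6 of the 14 surface genes listed did. Kit, by which cells were sorted, was at 673, 375 and 448 CPM in leukemic LSK and at 1160, 989 and 688 CPM in double mutant LSK (log2 change -0.94 ± 0.41, adjusted p = 0.106). Ly6a, which encodes Sca1, was at 114, 64.7 and 189 CPM in leukemic LSK and at 94.3, 76.4 and 72.4 CPM in double mutant LSK (log2 change 0.47 ± 0.37, adjusted p = 0.361). Both genes were present in all 6 libraries, and the LSK marker sum was 2440, 652 and 1150 CPM in leukemic LSK and 3000, 2680 and 2330 CPM in double mutant LSK. Of 14 surface genes 6 were lower and 0 higher, beside 14.8% called lower over all tested genes. Their median was -1.18, or -0.56 with 2 called lower when library 2 was left out. In the fit of the 6 libraries 0 were called. The medians of libraries 1, 2 and 3 were -0.06, -2.56 and -1.22 from the double mutant mean, and those of WT -0.07, -0.02 and -0.06. Slamf1, a stem cell marker, lay the other way, at 22.7, 7.38 and 19.5 CPM in leukemic LSK and at 6.64, 5.25 and 4.88 CPM in double mutant LSK, and did not pass the test (log2 change 1.42, adjusted p = 0.0809). Cd47, which protects cells from being engulfed, had a log2 change of 0.69 (adjusted p = 0.181), with the groups not overlapping. Procr, a marker of the most primitive stem cells, was at 11.6, 0.922 and 4.18 CPM in leukemic LSK and at 41.3, 29.1 and 40.5 CPM in double mutant LSK (log2 change -3.35 ± 0.66, adjusted p = 0.00493). Cd27, a surface gene of progenitors, was at 115, 16.2 and 51 CPM in leukemic LSK and at 218, 199 and 229 CPM in double mutant LSK (log2 change -2.23 ± 0.47, adjusted p = 0.00642). Esam and Cd34 were lower in all libraries together but not without library 2, where their log2 changes were -1.54 (adjusted p = 0.0836) and -1.05 (adjusted p = 0.115). Flt3, the receptor of multipotent progenitors, did not pass (log2 change -1.01, adjusted p = 0.198), with 558 CPM in leukemic library 1 above every double mutant value.

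Of 21 tested genes of the Hoxa, Meis and self-renewal list 7 were lower and 0 higher (median -1). Over all tested genes 14.8% were called lower. In the fit of the 6 libraries 0 of the 21 were called. Library 1 had a median of -0.22 from the double mutant mean, among those of WT (-0.37, -0.07 and 0.06). Libraries 2 and 3 were lower, at -2.02 and -1.11. Hoxa9, a driver of self-renewal in myeloid leukemia, was at 96.6, 20 and 39.5 CPM in leukemic LSK and at 111, 90.1 and 96.5 CPM in double mutant LSK, and did not pass the test (adjusted p = 0.0571). Myc was at 544, 885 and 878 CPM in leukemic LSK and at 793, 799 and 702 CPM in double mutant LSK (log2 change -0.03, adjusted p = 0.967). Mn1, a transcription coregulator, had a log2 change of -2.5 ± 0.61 (adjusted p = 0.0119). Of 12 MYC network genes 3 were lower (1 without library 2), beside 14.8% over all tested genes. They were Mxd4, Mga and Mycl, which encode 2 antagonists and a relative of MYC. The medians of the 12 were -0.6, -0.86 and -0.74 from the double mutant mean in libraries 1, 2 and 3. The other groups lay below that mean too. Their medians were -1.61, -0.52 and -1.07 in Tet2(-/-), -0.01, -0.05 and -0.35 in Nras(G12D), and -0.49, -0.39 and -0.46 in WT. Mxd4 was at 29.3, 6.19 and 10.2 CPM in leukemic LSK and at 42.3, 51.9 and 67.6 CPM in double mutant LSK (log2 change -2.11 ± 0.48, adjusted p = 0.00898). Mga was at -0.84 (adjusted p = 0.0115) and Mycl at -2.35 (adjusted p = 0.0479), and neither was called without library 2 (adjusted p = 0.0511 and 0.198).

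**Figure D4:**
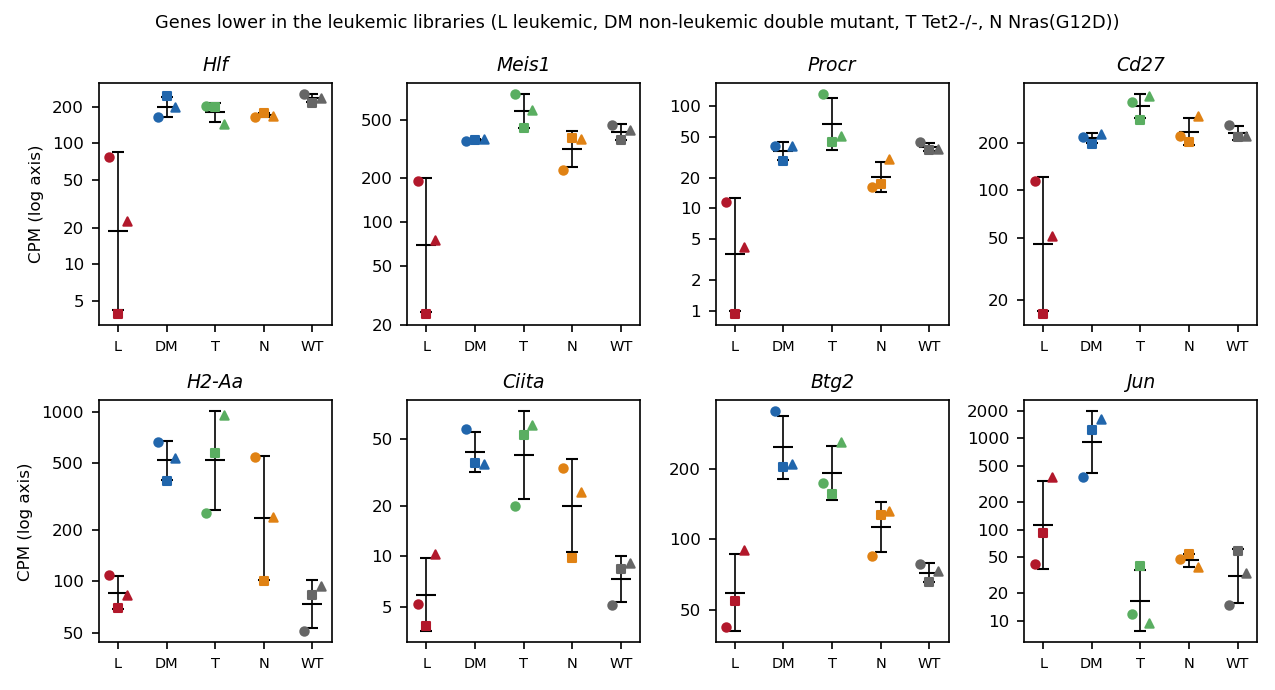
CPM (log axis) of 8 genes called lower in the leukemic libraries, for L (leukemic), DM (non-leukemic double mutant), T (Tet2(-/-)), N (Nras(G12D)) and WT. Circles, squares and triangles are libraries 1, 2 and 3, and black bars are the mean and SD on the log2 scale. For Hlf, Meis1, Procr and Cd27 the leukemic libraries lie below all other groups, while for H2-Aa, Ciita, Btg2 and Jun the double mutant libraries lie above WT. At Jun, leukemic library 3 (375 CPM) lies beside double mutant library 1 (379 CPM).

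The called genes of the lymphoid priming and platelet lists were lower, beside 14.8% called lower over all tested genes. Of 18 lymphoid priming genes 4 were lower and 0 higher (median -0.92), and 0 were called in the fit of the 6 libraries. Lsp1, an actin-binding protein of white cells, was at 239, 49 and 103 CPM in leukemic LSK and at 412, 308 and 363 CPM in double mutant LSK (log2 change -1.75 ± 0.42, adjusted p = 0.0106). Of 23 megakaryocyte and platelet genes 9 were lower and 0 higher (median -0.82), but 0 were called without library 2 and 0 in the fit of the 6 libraries. Mmrn1, a platelet granule protein, was at 45.6, 2.21 and 8.6 CPM in leukemic LSK and at 127, 98.7 and 72.5 CPM in double mutant LSK (log2 change -3.34 ± 0.85, adjusted p = 0.0136, and 0.0686 without library 2). Gng11, a G protein subunit of platelets, had a log2 change of -3.19 ± 0.7. The 4 megakaryocyte markers summed to 538, 86.3 and 144 CPM in leukemic LSK and to 431, 353 and 395 CPM in double mutant LSK, so that library 1 had no lower sum.

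Genes of antigen presentation were lower in each of the 3 leukemic libraries. Of 22 dendritic cell and MHC class II genes 13 were lower and 1 higher, with a median of -1.67 and library medians of -1.63, -2.39 and -1.3. Over all tested genes 14.8% were called lower and 9.44% higher. Without library 2, 4 were called lower, and in the fit of the 6 libraries 10. Ciita, the master activator of MHC class II genes, was at 5.22, 3.85 and 10.3 CPM in leukemic LSK and at 57.6, 35.8 and 35.4 CPM in double mutant LSK (log2 change -2.82 ± 0.52, adjusted p = 0.00383). H2-Aa, an MHC class II chain, was at 109, 69.7 and 83.5 CPM in leukemic LSK and at 665, 392 and 532 CPM in double mutant LSK (log2 change -2.59 ± 0.53, adjusted p = 0.00577). H2-DMb1, which loads peptides on class II proteins, had a log2 change of -2.2 ± 0.34 and Cd74, the invariant chain named after its values were seen, one of -2.46 ± 0.58. For these 4 genes the groups did not overlap. WT had 5.11, 8.45 and 9.19 CPM of Ciita, near the leukemic values, and the double mutant libraries stood above it. Cd209a, a lectin of dendritic cells, was at 0.103, 0.0329 and 0.436 CPM in leukemic LSK and at 5.98, 3.23 and 4.46 CPM in double mutant LSK (log2 change -5 ± 0.74, adjusted p = 0.00155). Clec10a was the gene called higher (log2 change 1.39, adjusted p = 0.034). Its call held in 1 of the 6 fits that left out a library. The 4 dendritic cell markers summed to 39.1, 45.4 and 59.9 CPM in leukemic LSK and to 96.5, 77.3 and 91.9 CPM in double mutant LSK. The markers did not move alike. Itgax and Xcr1 were called lower (adjusted p = 0.0326 and 0.037), while Zbtb46 and Siglech overlapped between the groups (adjusted p = 0.991 and 0.909). Zbtb46 was at 4.26, 30.6 and 28.1 CPM in leukemic LSK and at 9.55, 20.1 and 19.7 CPM in double mutant LSK. What part dendritic cells have in the class II values was not tested.

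Immediate early genes, which respond quickly to growth signals, were lower too. Of 23 genes, 15 were lower and 0 higher, beside 14.8% called lower over all tested genes. Their median was -1.89, with library medians of -2.19, -2.43 and -0.86. Without library 2, 5 were called, and in the fit of the 6 libraries 4. The double mutant libraries were the ones that stood apart: the medians of the 3 WT libraries for the same genes lay at -2.76, -2.03 and -2.41 from the double mutant mean. Jun was at 41.8, 91.3 and 375 CPM in leukemic LSK, at 379, 1230 and 1630 CPM in double mutant LSK and at 15, 57.8 and 33.7 CPM in WT (log2 change -3.02 ± 0.77, adjusted p = 0.0138). It was not called without leukemic library 2 (adjusted p = 0.0598), nor without double mutant library 2 or 3. Fos was at 18.9, 53.4 and 399 CPM in leukemic LSK and at 466, 745 and 955 CPM in double mutant LSK (log2 change -3.23 ± 0.87, adjusted p = 0.0182), and was lost in the same 3 fits. Btg2, an antiproliferative gene, was at 42.2, 54.7 and 89.8 CPM in leukemic LSK and at 355, 204 and 211 CPM in double mutant LSK (log2 change -2.07 ± 0.31, adjusted p = 0.00166). Zfp36, which promotes decay of cytokine messages, had a log2 change of -2.33 ± 0.45 (adjusted p = 0.0045). Btg2 and Zfp36 passed in all 6 fits that left out a library, and Rgs1, a G protein regulator often induced with this group, was at 48.3, 10.6 and 54.6 CPM in leukemic LSK and at 285, 261 and 348 CPM in double mutant LSK (log2 change -3.28 ± 0.5, adjusted p = 0.00188).

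Of 22 genes of ERK output and feedback 7 were lower and 1 higher (median -0.57), beside 14.8% lower and 9.44% higher over all tested genes. Without library 2 the count was 2 lower and 0 higher, and in the fit of the 6 libraries 1 and 0. The medians of leukemic libraries 1, 2 and 3 were -0.09, -1.43 and -0.44 from the double mutant mean. The other groups lay below that mean too. Their medians were -1.56, -0.72 and -1.05 in Tet2(-/-), -0.08, -0.12 and -0.55 in Nras(G12D), and -1.09, -0.52 and -0.75 in WT. Dusp2, a phosphatase that switches ERK off, was at 10.8, 1.45 and 7.51 CPM in leukemic LSK and at 27.8, 62.8 and 70.9 CPM in double mutant LSK (log2 change -3.34 ± 0.72, adjusted p = 0.0068). The gene called higher was Il1rl1, the IL-33 receptor, at 13.8, 137 and 81.5 CPM in leukemic LSK and at 12, 8.11 and 2.6 CPM in double mutant LSK (log2 change 3.08, adjusted p = 0.0137, and 0.078 without library 2). Of 34 RAS pathway components 5 were lower and 1 higher (median -0.25), beside 24.2% called over all tested genes. Without library 2 the count was 2 lower and 0 higher. The RAS component medians were -0.16, -0.52 and -0.36 in leukemic libraries 1, 2 and 3, and -0.74, -0.38 and -0.59 in WT. Mras, a RAS relative, had a log2 change of -3.2 ± 0.45 (adjusted p = 0.00115) and Rasgrp4, a RAS exchange factor, one of -2.88 ± 0.59 (adjusted p = 0.00571).

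Genes of DNA methylation and chromatin were called at about the share of all tested genes (24.2%), so these counts are no result about the lists. Of 19 DNA methylation genes 4 were lower and 1 higher (median -0.27), and 0 were called without library 2. Tet1 was at 81, 10.5 and 28.4 CPM in leukemic LSK and at 108, 98.3 and 98 CPM in double mutant LSK (log2 change -1.81, adjusted p = 0.0171), and without library 2 its adjusted p was 0.0603. Of 30 Polycomb and chromatin genes 6 were lower and 1 higher (median -0.17), against 2 lower and 0 higher without library 2 and 3 and 0 in the fit of the 6 libraries. Cbx8, a Polycomb reader, was at 6.97, 3.16 and 6.36 CPM in leukemic LSK and at 16.4, 17.1 and 18.8 CPM in double mutant LSK (log2 change -1.74 ± 0.27, adjusted p = 0.00228). Kmt2d, a histone H3 methyltransferase, had a log2 change of -1.33 ± 0.31 (adjusted p = 0.00988). Of 32 genes of the AML and MDS list 3 were lower and 2 higher, and without library 2, 1 and 1. Bcorl1, a corepressor, had a log2 change of -1.83 ± 0.29 (adjusted p = 0.00235), and Npm1, a nucleolar chaperone mutated in human AML, one of 1.08 ± 0.23 (adjusted p = 0.00625).

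Called myeloid genes were divided between the directions, beside 9.44% higher and 14.8% lower over all tested genes. Of 21 granulocyte-monocyte progenitor genes 2 were higher and 3 lower (median 0.02), and without library 2, 4 and 1. Of 22 neutrophil genes 1 was higher and 1 lower (median -0.37). Of 22 monocyte and macrophage genes 3 were higher and 3 lower (median -0.26), and without library 2, 0 and 2. Of 22 myeloid fate transcription factors 1 was higher, Gata1, and 2 were lower (median -0.65). Ms4a3, a gene of granulocyte-monocyte progenitors, was at 318, 166 and 231 CPM in leukemic LSK and at 89.9, 82.3 and 111 CPM in double mutant LSK (log2 change 1.3 ± 0.34, adjusted p = 0.0154). Hp, haptoglobin, had a log2 change of 1.46 ± 0.35 (adjusted p = 0.0114), and Fcnb, a ficolin gene of early granulocytes, one of -2.65 ± 0.53 (adjusted p = 0.00511). The neutrophil markers summed to 112, 65.5 and 91.6 CPM in leukemic LSK and to 124, 79.7 and 244 CPM in double mutant LSK. Lgals3, galectin 3, was lower (log2 change -1.69 ± 0.4, adjusted p = 0.00993).

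Genes of other lineages were called in both directions, beside 24.2% called over all tested genes. Of 16 mast cell, basophil and eosinophil genes 2 were higher, Cma1 and Tpsb2, which encode mast cell proteases. Tpsb2 was at 34.1, 1.28 and 7.26 CPM in leukemic LSK and at 0.104, 0.151 and 0 CPM in double mutant LSK (adjusted p = 0.0124). Of 16 B cell genes 4 were lower and 1 higher, and without library 2, 2 and 1. Of 13 T and NK cell genes 3 were higher and 2 lower, and 0 were called in the fit of the 6 libraries. Cd72, a B cell receptor regulator, had a log2 change of -2.67 ± 0.54 (adjusted p = 0.00558), and Il2rb, an interleukin receptor chain, one of 3.05 ± 0.68 (adjusted p = 0.00795). T and NK cell markers summed to at most 9.04 CPM in leukemic LSK and at most 9.13 CPM in double mutant LSK. Of 13 stromal and endothelial genes 2 were higher and 3 lower (2 and 0 without library 2), and of 17 matrix genes 2 and 3 (1 and 2 without library 2). Mmp2, a gelatinase gene of the matrix list, was at 9.4, 1.09 and 1.06 CPM in leukemic LSK and at 47.6, 47.2 and 56 CPM in double mutant LSK (log2 change -4.49 ± 0.75, adjusted p = 0.00285). Klk8, a kallikrein protease gene, had a log2 change of -3.61 ± 0.58 and Ctsf, a cathepsin gene, one of -3.2 ± 0.64. Ltbp3, which binds latent TGF-beta, was at -3.15 (adjusted p = 0.0123) and lost its call without leukemic library 2 (adjusted p = 0.0604).

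Of 33 interferon-stimulated genes 4 were higher and 0 lower, beside 9.44% called higher over all tested genes. Without library 2, 1 was higher, without library 3, 1 was higher and 1 lower, and in the fit of the 6 libraries 0 were called. Their median was 0.22, -0.02 under scaling by total counts, and -0.04 without leukemic library 3. Oasl1, an antiviral effector, was at 21.4, 72.3 and 71.5 CPM in leukemic LSK and at 12.4, 13.9 and 10.3 CPM in double mutant LSK (log2 change 1.99 ± 0.43, adjusted p = 0.00693). Of 24 NF-kB and inflammatory genes 0 were called (median -0.43). All leukemic values lay below the double mutant ones at 4 of them, beside 22.8% over all tested genes. Of 23 p53 targets 1 was higher and 2 lower (median -0.01), and of 13 BCL2 family genes 1 was higher and 1 lower. Of 31 cytokine receptors 3 were higher and 2 lower (2 and 0 without library 2), and of 24 lipid genes 2 and 2. Of 26 homing and adhesion genes 1 was higher and 5 lower, beside 14.8% called lower over all tested genes. Without library 2, 1 was higher and 1 lower, and in the fit of the 6 libraries 1 and 0. Cd93, a stem cell surface gene of the homing list, had a log2 change of -1.95 ± 0.46 (adjusted p = 0.0099), and Abcg1, a cholesterol exporter, one of -2.4 ± 0.44 (adjusted p = 0.00383).

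**Figure D5:**
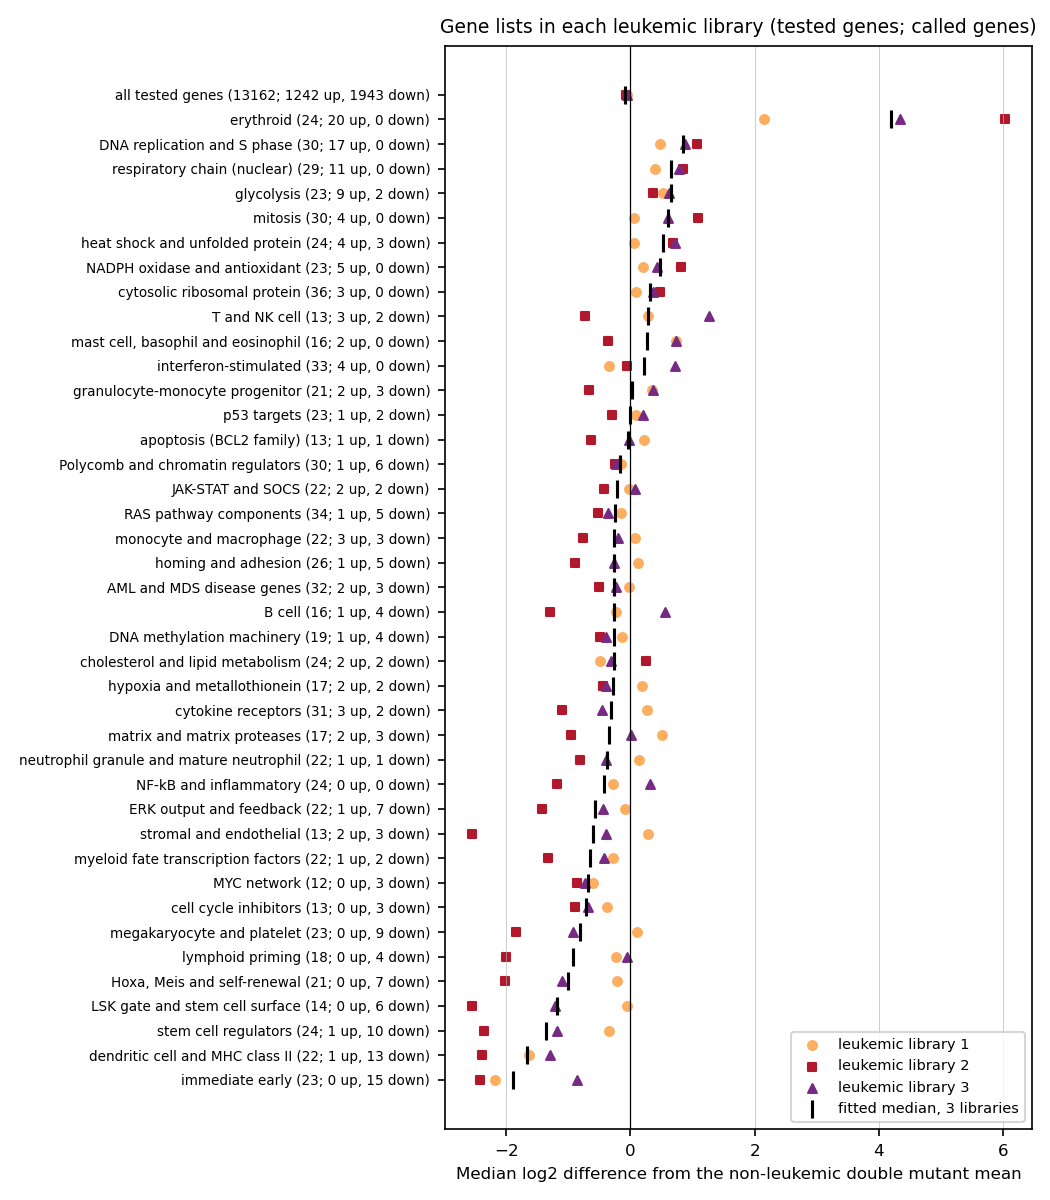
Median log2 difference of each gene list from the non-leukemic double mutant mean in leukemic libraries 1 (circle), 2 (square) and 3 (triangle), with the fitted median of the 3 as a bar. Labels give the genes tested and those called higher (up) and lower (down). The erythroid list lies farthest to the right (2.15, 6.04 and 4.34), and the stem cell lists, MHC class II and immediate early lists farthest to the left. Library 1 lies nearest 0 in most lists.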

How the data were processed

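The authors deposited log2 values of 44827 genes in 15 libraries. Per the submitters' processing notes, the tools were STAR 2.4.0f1, bcl2fastq, limma 3.28.21 and edgeR 3.14.0, and mm10 and NCBIM37 are named as builds without a role. The counting program and its strand setting are unknown here. In the deposited table each value is the log2 of CPM with 0.5 added to the count and 1 to a scaled library size. Whole reads came back for 100% of values within 1e-06. Scaled library sizes were 0.81 to 1.12 times the reads summed. Totals were 22733189 to 43562909 reads, and 3 counts corresponded to 0.0905 to 0.105 CPM in the 6 libraries compared. No 2 libraries of a group agreed within sampling noise. Values printed as CPM are the recovered counts over the scaled library size, without the added 0.5.

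The fit was limma 3.58.1 (R 4.3.3) with a mean-variance trend, 5 group means over all 15 libraries, and Benjamini-Hochberg adjustment over 13162 genes, two-sided, at 0.05. The log2 fold change of low genes depends on the added count. The exact permutation test of 3 against 3 libraries cannot go below 0.1, so single genes were tested only by the fit. Genes were named by a rule of size: up to 14 called rises and 14 called falls whose groups do not overlap and whose higher mean reaches the median log2 CPM of tested genes, 4.95. Up to 4 genes of smallest p per list were added, and Tet2, Nras, Kit, Ly6a and Xist always. The 40 lists (896 genes, 797 tested), the comparison and the tests were chosen with earlier results of these data known. Promoters are from RefSeq, build GRCm38.p6, and gene positions from the GRCm38 annotation. Genes named outside the rule were chosen after their values were seen. They were the Rpl34 set, Klf1, Alas2, Tfrc, Hba-a2, Hbb-bt, Cd74, Clec10a, Itgax, Xcr1, Zbtb46, Siglech, Mllt3 and Flt3. Others were Hoxa9, Slamf1, Cd47, Myc, E2f1, Car2, Hemgn, Gfi1b, Zfpm1 and those of the closing observations. A few genes chosen by this rule were left out of the text. Alternatives covered weights, scaling, filters, added counts, libraries left out, covariates and blocks.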

Additional observations from a re-analysis of the deposited data

How the results depend on the processing

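The number of genes called, 3185 (1242 higher, 1943 lower), moved with the libraries and their weights. It was 7695 (3389 higher, 4306 lower) by voom with sample quality weights and 9223 (4102 higher, 5121 lower) with array weights, where leukemic library 3 took a weight of 208. In a fit of the 6 libraries alone it was 935 (433 higher, 502 lower). Without the libraries holding Y-linked transcripts, which leaves 2 a group here, it was 5774 (2355 higher, 3419 lower). Leaving out each of the 6 libraries gave 1122 to 5047 calls, 401 to 2073 higher and 721 to 2974 lower. Scaling by total counts gave 776 genes higher, and testing with no filter gave 807. Voom without weights gave 3272, the filter over 15 libraries 3382, the stricter filter 2381, quantile normalization 2579 and added counts of 0.1 and 5 gave 3183 and 3221. The deviations of same-numbered libraries correlated at 0.057, 0.081 and -0.017, and those of differently numbered libraries at -0.174 to 0.19. With 3 libraries a group, these values cannot tell whether replicate numbers pair the samples. With the replicate number as a block, 3346 genes were called (1385 higher, 1961 lower), and with the block and a GC correction 3540. The 189 named genes that were called kept their sign under every alternative run. Of these, 102 were called in all 6 fits leaving out a library, 92 in the fit of the 6 libraries, 185 under the replicate block and 184 without the Y-linked libraries. Xist, with a log2 change of 0.77, was at -2.01 without the Y-linked libraries. That fit left out leukemic library 1 (56.8 CPM of Xist) and double mutant library 1 (0.692 CPM). The compared libraries kept had 150 and 157 CPM in leukemic LSK and 537 and 706 CPM in double mutant LSK. For the moved counts of called genes the cause was not tested.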

Other observations

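Genes of ribosome assembly in the nucleolus, a set put together after values were seen, were higher in leukemic than in double mutant LSK. Of 27 tested genes 17 were called higher and 0 lower, beside 9.44% called higher over all tested genes. Their median log2 change was 0.95, and all 27 had a positive change. Without leukemic library 2, 5 were called. The medians of leukemic libraries 1, 2 and 3 were 0.46, 1.26 and 1.18 from the double mutant mean. Library 1 was thus level with several libraries of the other groups, at 0.47, 0.28 and 0.51 in Tet2(-/-), -0.12, 0.31 and 0.44 in Nras(G12D), and 0.45, 0.37 and 0.33 in WT. Ncl, nucleolin, was at 2560, 4650 and 4120 CPM in leukemic LSK and at 1360, 1370 and 1400 CPM in double mutant LSK (log2 change 1.41 ± 0.2, adjusted p = 0.00115). Nolc1, Nhp2 and Ddx21, which act in the assembly of ribosomes and small RNPs, had log2 changes of 1.71, 1.63 and 1.58. All 4 passed in the 6 fits that left out a library. A second such set, genes of serine, one-carbon and amino acid supply, had 5 of 15 higher and 0 lower (median 0.82). Asns, asparagine synthetase, was at 86.4, 783 and 320 CPM in leukemic LSK and at 15.1, 22.2 and 16.9 CPM in double mutant LSK (log2 change 3.97 ± 0.6, adjusted p = 0.00167). Shmt2 and Psat1 had log2 changes of 1.46 and 1.06, while Atf4, which encodes a regulator of several of these genes, had one of 0.35 (adjusted p = 0.435).

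The following single genes were chosen after their values were seen. Sfrp4, a secreted WNT antagonist, was at 4.26, 32.8 and 26.2 CPM in leukemic LSK and at 0.0692, 0.151 and 0.0351 CPM in double mutant LSK (log2 change 7.41 ± 0.82, adjusted p = 0.000417). Il2ra, the interleukin 2 receptor alpha chain, was at 1.99, 2.47 and 7.17 CPM in leukemic LSK and at 0, 0.121 and 0 CPM in double mutant LSK (adjusted p = 0.00106). Itga9, an integrin gene, was at 0.618, 0.165 and 0.0935 CPM in leukemic LSK, at 7.44, 7.09 and 9.44 CPM in double mutant LSK and at 5.91, 4.42 and 3.81 CPM in WT (adjusted p = 0.000228). Scube3, a secreted signalling protein gene, was at 0.137, 0.0329 and 0.0312 CPM in leukemic LSK and at 3.08, 3.08 and 3.65 CPM in double mutant LSK (adjusted p = 0.000103). Gcsam was at 5.01, 3.79 and 3.99 CPM in leukemic LSK and at 30, 25.7 and 31.5 CPM in double mutant LSK (adjusted p = 0.000185).

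Gbp2b, a guanylate-binding protein gene on chromosome 3 from 142594847 to 142619179, was at 0.24, 5.8 and 0.312 CPM in leukemic LSK, at 28, 18.5 and 35.1 CPM in double mutant LSK and at 0.0381, 0.156 and 0.183 CPM in WT (log2 change -5.06, adjusted p = 0.00564). Ifi44l, an interferon-stimulated gene, was at 0.0343, 0.0659 and 0 CPM in leukemic LSK, at 22.3, 21.6 and 38.2 CPM in double mutant LSK and at 73.6, 0 and 62.6 CPM in Tet2(-/-). Its log2 change of -9.35 depends on the added count. Thbs1, a thrombospondin gene, was at 1.89, 2.63 and 4.93 CPM in leukemic LSK and at 0.899, 2.02 and 1.26 CPM in double mutant LSK (adjusted p = 0.292), with 304, 77.2 and 302 CPM in WT.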
